A study of Mus musculus with 16 samples.

Results

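The angiogenins and their relatives Rnase1 and Rnase4, secreted ribonucleases of the RNase A family, were followed in the colon of each mouse pup. The set holds the genes whose name in the scanner output equals 1 of 9 names, namely Ang, Ang2, Ang3, Ang4, Ang5, Ang6, the angiogenin pseudogene ENSMUST00000162314, Rnase1 and Rnase4. Of these, 8 were measured, among 36711 genes in all, each by 1 probe. Ang5 had no probe under its own name. The set was chosen from the delivery mode comparison of these same arrays, in which the angiogenins were among the largest increases, so values from that comparison are given as a description and are not evidence of a change.

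Colon RNA of 16 RjOrl:SWISS pups, an outbred stock, was hybridised at weaning on 1-colour arrays, 1 array per pup. The source field of the sample labels reads intestine, and colon was taken from their extraction protocol and the study's methods. The 8 C-section (CSD) pups were taken by hysterectomy from mothers 3 and 4 and fostered by dams that had delivered vaginally, and the 8 vaginally delivered (VD) pups were born to mothers 5 and 6, whose litters were exchanged between dams. Each CSD litter gave 2 females and 2 males, the litter of mother 5 gave 2 females and 3 males, and that of mother 6 gave 3 males. No mother had pups of both delivery modes, so that delivery mode and other differences between 2 pairs of litters, genetic or of rearing, cannot be told apart. Each of the 2 slides carried the arrays of 4 CSD and 4 VD pups. Between 58.7% and 64.9% of the gene spots of an array lay well above background, the lowest share being that of VD pup 11, and 0 spots were saturated. The colon marker Hoxb13, a homeobox gene of the hindgut, was at 16.64 ± 0.11 (log2 intensity, SD, n = 8) in CSD pups and 16.78 ± 0.15 (n = 8) in VD pups, while the small intestine enzymes Lct (lactase) and Sis (sucrase-isomaltase) were well above background on 0 of 16 arrays. Both were singled out after their values were seen. Of all 12 small intestine genes listed, 6 were well above background on 16 of 16 arrays, among them the fatty acid binding protein Fabp2 (means 11.92 in CSD and 11.23 in VD pups), and 4 on none.

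Ribonucleases of the RNase A family are small secreted proteins that cut RNA. Angiogenins, named for the growth of blood vessels that the founding member can induce, are weak ribonucleases that cleave transfer RNA inside cells under stress, and mice carry several angiogenin genes in place of the single human one. Ang4 is made by secretory cells of the mouse intestinal epithelium and has been described as an antibacterial protein, Rnase1 is the abundant pancreatic ribonuclease, and Rnase4 lies beside Ang and shares a promoter with it.

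The 60-base probes show which transcripts each measurement can stand for. Those of Ang4, the pseudogene, Ang6, Ang2 and Ang are printed 5′ to 3′ as given in the scanner output, and the capitals in the last pair mark the stretch over which the Ang2 and Ang probes align.
Ang4: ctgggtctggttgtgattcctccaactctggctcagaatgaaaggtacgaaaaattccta
ENSMUST00000162314: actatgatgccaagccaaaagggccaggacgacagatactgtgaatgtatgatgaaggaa
Ang6: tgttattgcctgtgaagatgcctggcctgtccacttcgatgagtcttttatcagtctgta
Ang2: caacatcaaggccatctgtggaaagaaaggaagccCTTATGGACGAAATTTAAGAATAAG
Ang: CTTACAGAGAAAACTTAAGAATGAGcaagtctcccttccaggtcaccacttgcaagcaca
All lie on chromosome 14 (mm9). The Ang3 probe (chr14:44540600-44540659), the Ang6 probe (chr14:44579492-44579551) and the pseudogene's probe (chr14:44634913-44634972) lay close together. The probes of Ang (chr14:51721338-51721397), Rnase4 (chr14:51725036-51725095), Rnase1 (chr14:51764724-51764783), Ang2 (chr14:51815315-51815374) and Ang4 (chr14:52384066-52384125) lay several megabases further along. The probes themselves were unlike each other: the longest run that any pair of the 8 shared was 8 bases, between Ang and Ang2, whose capitalised stretches matched at 19 of 25 bases. The transcripts assigned to them overlapped more. The scanner output lists 4 transcript records per probe, and the Ang3 and Ang6 probes had 2 of these in common, the RefSeq records of Ang6 (NM_001011876) and of Ang5 (NM_007448). Ang5 was therefore measured, if at all, only through probes named for Ang3 and Ang6. The Ang4 probe and the pseudogene's probe also had 2 records in common (BC132444 and BC132448). No other pair among the 8 shared a record. How much of the signal of one angiogenin's probe came from the transcript of another was not tested.

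Ang4, the angiogenin of intestinal secretory cells, ranged over a log2 intensity of 7.93 between pups, a 245-fold range. In the litter of mother 3 (CSD) it was 15.65 in pup 8, 15.33 in pup 5, 14.31 in pup 9 and 13.76 in pup 3. In the litter of mother 4 (CSD) it was 15.70 in pup 2, 14.43 in pup 6, 13.15 in pup 1 and 10.47 in pup 7. In the litter of mother 5 (VD) it was 14.52 in pup 4, 10.36 in pup 5, 9.55 in pup 9, 8.42 in pup 10 and 7.77 in pup 11. In the litter of mother 6 (VD) it was 10.46 in pup 6, 10.09 in pup 7 and 8.67 in pup 8. The groups overlapped through 1 pup of each: VD pup 4 was above 5 of the 8 CSD pups, and CSD pup 7 (10.47) lay beside the next highest VD pup (10.46). The other 7 CSD pups lay at 13.15 and above and the other 7 VD pups at 10.46 and below. Even in VD pup 11, the lowest, the spot's mean signal was 185 against a local background of 25.0, and all 6 angiogenin probes were well above background on 16 of 16 arrays. In tissue RNA, fewer cells that make a transcript and less of it per cell cannot be told apart.

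**Figure D1:**
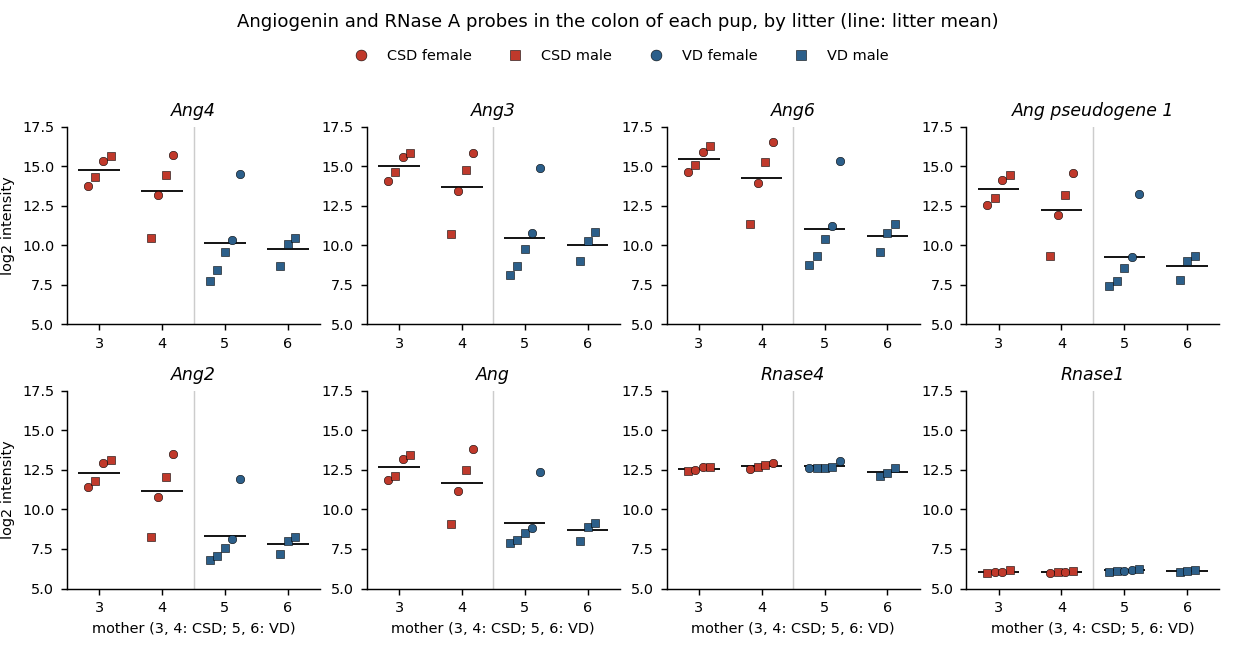
Normalized log2 intensity (vertical axis) of the 8 measured members in each of the 16 pups, by mother (horizontal axis), with females as circles, males as squares, CSD pups in red and VD pups in blue. Black lines are litter means. The 6 angiogenin panels repeat one arrangement, with VD pup 4 and CSD pup 7 apart from their groups, whereas Rnase4 stays between 12.11 and 13.07 and Rnase1 near 6.

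The other angiogenin probes showed the same pups at the top and at the bottom. Ang3 lay between 10.74 and 15.85 (median 14.68) in CSD pups and between 8.14 and 14.86 (median 10.03) in VD pups. Ang6 lay between 11.31 and 16.54 (median 15.17) in CSD pups and between 8.76 and 15.30 (median 10.58) in VD pups. The pseudogene's probe lay between 9.35 and 14.56 (median 13.10) and between 7.43 and 13.22 (median 8.79), respectively. In all of these, VD pup 4 was the highest VD pup and CSD pup 7 the lowest CSD pup. Ang2, an angiogenin whose gene lies between Rnase1 and Ang4, was between 8.28 and 13.50 (median 11.92) in CSD pups and between 6.83 and 11.92 (median 7.81) in VD pups. Ang, the founding angiogenin, was between 9.09 and 13.83 (median 12.31) in CSD pups and between 7.88 and 12.35 (median 8.66) in VD pups. Between 1 and 3 VD pups, VD pup 4 among them, lay above the lowest CSD pup, depending on the probe.

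Rnase4 did not share this pattern, although its probe lies next to that of Ang. It was between 12.42 and 12.95 (median 12.70) in CSD pups and between 12.11 and 13.07 (median 12.62) in VD pups, a range of less than 1 on the log2 scale in which the groups lay over each other. VD pup 4 had its highest value too, at 13.07. Rnase1, the pancreatic ribonuclease, was not well above background on any of the 16 arrays (6.00 to 6.26), so that no fold is given for it.

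In a limma model with terms for delivery mode and sex and a random effect of the mother, Ang4 was at 14.10 ± 1.72 (SD, n = 8) in CSD pups and 9.98 ± 2.08 (n = 8) in VD pups, a log2 difference of 3.66 (SE 0.84) after adjustment for sex, or 12.6-fold. The log2 differences of the other angiogenins were 3.59 (SE 0.84) for Ang3, 3.58 (SE 0.82) for Ang6, 3.42 (SE 0.79) for the pseudogene, 3.21 (SE 0.73) for Ang2 and 2.86 (SE 0.67) for Ang. That of Rnase4 was 0.05 (SE 0.11). The median over all genes was 0.003. At a Benjamini-Hochberg adjusted p under 0.05, which is what called means throughout, 6 of the 8 measured members were called and all were higher in CSD pups. Of all 36711 genes 1.25% were called, and 0.706% were called and higher in CSD pups. Nothing is read from these counts, since this comparison chose the members. Folds are on the log2 scale after an offset of 50, which understates the change of dim spots.

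The 6 calls lay close to the limit and their direction did not change. The difference of Ang4 stayed between 2.78 and 5.20 in each alternative, including 3.46 on slide 1 alone, 3.83 on slide 2 alone and 4.56 in males alone. The number of angiogenins called was 0 in each of these 3 subsets. It was also 0 in the deposited gene matrix, with litter means as samples (2 against 2), with the smaller offset of 16, with the scanner software's processed intensity under either scaling, with a stricter filter on dim probes, with eBayes trend and robust, in the replicate block and without the litter of mother 3, 4 or 5. It fell to 1 or 0 without any single pup other than CSD pup 7, VD pup 4 or VD pup 7. Without both VD pup 4 and CSD pup 7, left out after their Ang4 values were seen, the difference of Ang4 was 5.20 and 6 angiogenins were called; leaving out the highest VD and the lowest CSD pup widens the gap between the group means by construction, so nothing is read from this.

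The angiogenins also varied widely between pups of the same delivery mode. The SD within delivery modes was 1.91 for Ang4, 1.90 for Ang3, 1.86 for Ang6, 1.78 for the pseudogene, 1.64 for Ang2 and 1.48 for Ang, against a median of 0.10 over genes measured on each of the arrays. Ranked from the largest of these 36493 SDs, Ang4 came 10 and Ang 33. The SD of Rnase4 was 0.23 and ranked 3713. Within CSD pups the highest value of Ang4 was 37.5-fold the lowest, and within VD pups 108-fold. Each of these ranges rests largely on 1 pup. The SD of Ang4 was 1.72 in CSD pups and 0.98 without CSD pup 7. In VD pups it was 2.08, and 1.05 without VD pup 4. Both pups were left out after their values were seen.

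After each delivery mode's mean was subtracted, the 6 angiogenin probes kept nearly the same order of pups, with Pearson r between 0.978 and 0.999 over the 15 pairs (16 pups of 4 litters, a description of arrays that the probes share). Ang3 and Ang6 moved with Ang4 almost point for point. The slope on Ang4 was 1.0 for Ang3 and 0.97 for Ang6, and the log2 difference between their probes and that of Ang4 varied between pups with an SD of only 0.07 and 0.10. For the pseudogene the slope was 0.93 and this SD 0.25. Ang2 (slope 0.85, SD 0.46) and Ang (slope 0.76, SD 0.71) followed the same pups with smaller steps and were closest to each other with r = 0.998. These slopes were computed with the offset of 50, which compresses dim spots. The delivery mode difference of Ang2, 3.21 against 3.59 for Ang3 and 3.58 for Ang6, was 3.67 with the scanner software's processed intensity after quantile normalization, against 3.70 for Ang3 and 3.64 for Ang6, while that of Ang was 3.07. Rnase4 had a slope of 0.05 and r = 0.44, which was 0.22 without VD pup 4 and CSD pup 7.

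**Figure D2:**
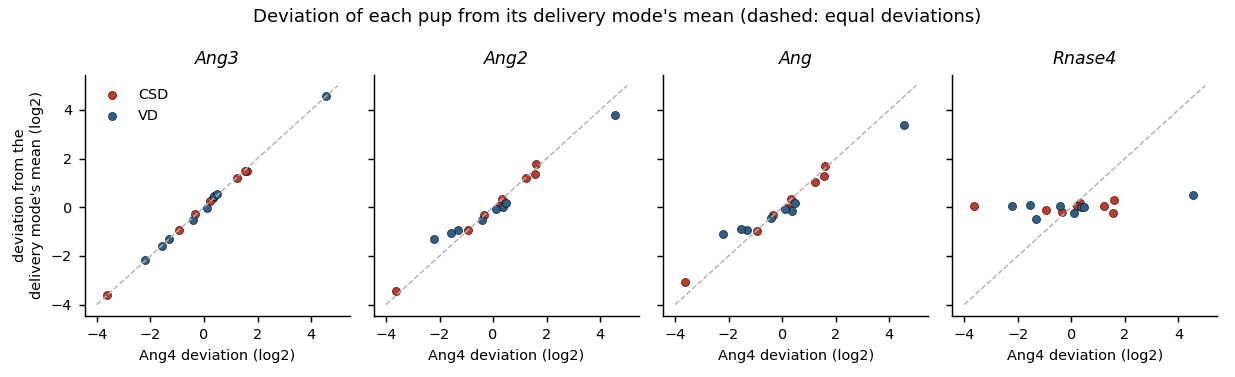
Each point is a pup, placed by the deviation of Ang4 (horizontal axis) and of another member (vertical axis) from the mean of its delivery mode, both in log2 units, with CSD pups in red and VD pups in blue. Ang3 follows the dashed line of equal deviations, Ang2 and Ang take smaller steps at the offset of 50 (slopes 0.85 and 0.76), and Rnase4 is flat (slope 0.05).

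Comparisons that did not choose the members asked whether litters or sexes differed. Between the litters of mothers 3 and 4, both CSD, the difference of Ang4 was 1.32 (SE 1.14, adjusted p = 0.834, limma with sex as a covariate; 0.58 without CSD pup 7 and 2.05 without CSD pup 3), with the means 14.76 ± 0.88 (SD, n = 4) and 13.44 ± 2.23 (n = 4). An exact two-sided permutation test over these 8 pups gave p = 0.371, where 0.0286 is the smallest possible. The differences of the 6 angiogenins ran from 1.0 to 1.33, and 0 of the 8 members were called, when 0.0872% of all genes were. The litters of mothers 5 and 6, both VD, had Ang4 means of 10.12 ± 2.66 (SD, n = 5) and 9.74 ± 0.94 (n = 3). With sex in the model the difference was -0.39 (SE 1.23, adjusted p = 0.951, limma). It was 0.14 without VD pup 11 and -0.98 without VD pup 4. The exact two-sided permutation test without sex gave p = 0.911, where 0.0179 is the smallest possible. Again 0 of the 8 were called, beside 0.874% of all genes. Rnase4 had the smallest p of the members there, at 0.35 higher in the litter of mother 5 (SE 0.14, adjusted p = 0.316).

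No member passed the test between the sexes. Ang4 was at 14.48 ± 1.22 (SD, n = 4) in CSD females and 13.71 ± 2.24 (n = 4) in CSD males, and at 12.44 ± 2.95 (n = 2) in VD females and 9.16 ± 1.04 (n = 6) in VD males. The difference between females and males over both delivery modes was 1.85 (SE 0.85, unadjusted p = 0.0442, adjusted p = 0.767, limma), with 1.34 to 1.86 for the 6 angiogenins and 0.14 (SE 0.11) for Rnase4. Pup 4 was 1 of the 2 VD females, and without it the sex difference of Ang4 was 0.91. In all, 0 of the 8 members were called between the sexes, and 0.0599% of all genes were. The delivery mode difference of Ang4 in females minus that in males was -2.53 (SE 1.64, adjusted p = 0.981, limma), which did not pass either. It was -0.44 without VD pup 4 and -4.61 without VD pup 5, the other VD female. There 0 of the 8 members and 0.00272% of all genes were called.

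**Figure D3:**
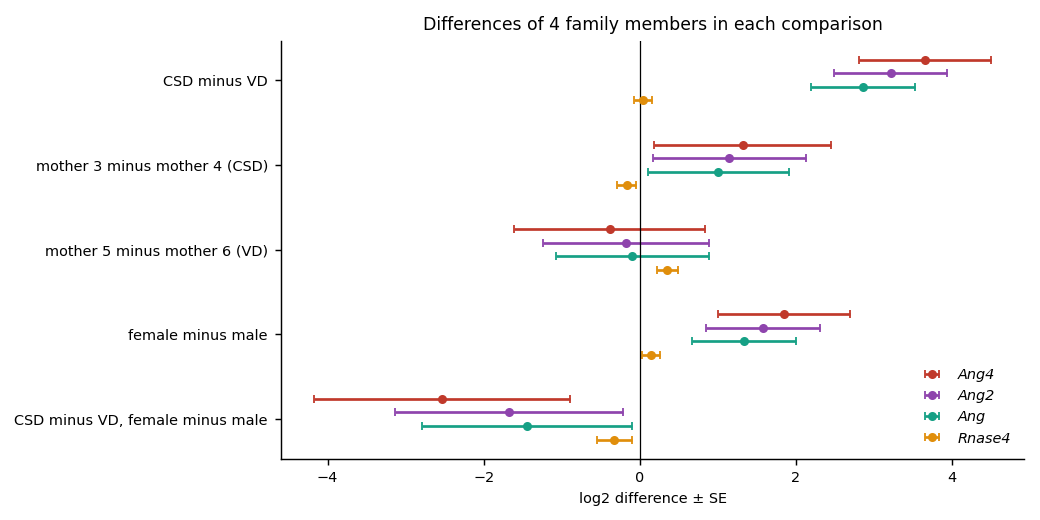
Log2 differences (horizontal axis, points) with their SE (bars) of Ang4, Ang2, Ang and Rnase4 in each comparison (vertical axis). The top comparison chose the members; in the 4 others the angiogenins have SEs between 0.67 and 1.64 and 0 of the 8 members passed the test.

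Other secreted ribonucleases of the family lie among the angiogenins on chromosome 14, and 15 of the 19 names listed were measured. Of the 4 other names, RefSeq gives Ear5 and Ear11 as synonyms of the measured Rnase2b and Rnase2a. None was called between CSD and VD pups (0 of 15, with 1 at an unadjusted p under 0.05, as were 14.5% of all genes), 4 were higher and 11 lower, and the median log2 difference was -0.05. Among the 9 with a spot well above background on at least 1 array, differences ran from -0.34 to 0.01 and SDs within delivery modes from 0.04 to 0.41, below that of every angiogenin. Rnase6, a ribonuclease of phagocytes, was at 7.36 ± 0.31 (SD, n = 8) in CSD pups and 7.71 ± 0.23 (n = 8) in VD pups (difference -0.31, SE 0.13, adjusted p = 0.288). Rnase2a, an eosinophil-associated ribonuclease between Ang2 and Ang4, differed by -0.34 (SE 0.18, adjusted p = 0.418), and Ear2, the brightest of the list, by -0.27 (SE 0.19, adjusted p = 0.574). Ear2 has its probe next to that of the pseudogene. Eosinophil markers had 0 of 7 called (0 at an unadjusted p under 0.05) and a list mean of 6.44 ± 0.11 (SD, n = 8) in CSD pups and 6.53 ± 0.09 (n = 8) in VD pups, in which Siglecf, the brightest, differed by -0.02 (SE 0.09, adjusted p = 0.937). Prg2 (major basic protein), well above background on 4 of 8 CSD and 8 of 8 VD arrays, differed by -0.33 (SE 0.19, adjusted p = 0.468), with part of the CSD values at the background. Alox15 (a lipoxygenase) was well above background on 0 of 8 CSD and 4 of 8 VD arrays, so that no fold is given for it.

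**Figure D4:**
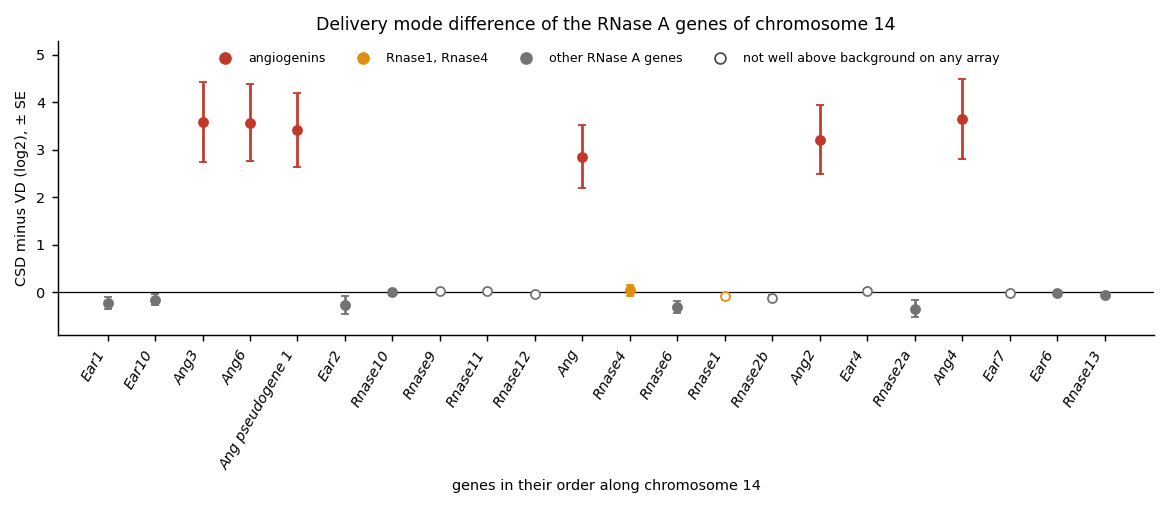
Log2 difference between CSD and VD pups (points, bars SE) of the RNase A genes in their order along chromosome 14 (horizontal axis), with angiogenins in red, Rnase1 and Rnase4 in orange, other members of the family in grey and open circles for genes not well above background on any array. The 6 angiogenins lie between 2.86 and 3.66. Ang3, Ang6 and the pseudogene are neighbours in the order, and Ang, Ang2 and Ang4 each stand apart with genes near 0 between them.

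The region before the transcription start was similar in Ang4, Ang5 and Ang6 and different in Ang. RefSeq promoters (GRCm38.p6) were given for Ang, Ang4, Ang5, Ang6, Rnase1 and Rnase4. The 250 bases before the start of Ang4 (chr14:51773591-51773840, minus strand) and Ang6 (chr14:44006419-44006668, minus strand) are printed 5′ to 3′ because these genes' probes moved together, and capitals mark the bases that differ between them or have no partner in their alignment.
Ang4: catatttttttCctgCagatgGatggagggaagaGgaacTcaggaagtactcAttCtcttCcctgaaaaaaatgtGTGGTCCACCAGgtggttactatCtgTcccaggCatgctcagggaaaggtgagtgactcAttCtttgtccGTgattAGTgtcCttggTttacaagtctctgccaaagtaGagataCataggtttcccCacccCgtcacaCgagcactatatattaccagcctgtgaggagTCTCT
Ang6: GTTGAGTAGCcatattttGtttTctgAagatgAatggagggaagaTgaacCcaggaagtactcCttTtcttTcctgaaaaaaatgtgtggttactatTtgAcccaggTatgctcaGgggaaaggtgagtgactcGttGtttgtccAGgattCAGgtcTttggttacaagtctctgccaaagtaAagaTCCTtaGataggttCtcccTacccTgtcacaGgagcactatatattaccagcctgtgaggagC
They matched at 208 of 233 aligned bases (89.3%), with 20 further bases in gaps inside the alignment. The 250 bases of Ang5 and Ang6 were identical. Ang and Rnase4 have the same 250 bases before a shared start (promoter entry chr14:51090827-51091126, plus strand), and their probes had an SD within delivery modes of 1.48 and 0.23. Against the 250 bases of Ang, the best local alignment of those of Ang4 held 16 bases (12 matching). A further Rnase4 start (chr14:51095750-51096049, plus strand) held a stretch of 62 aligned bases that matched Ang6 at 47. Of 5 motifs searched on both strands in the 250 bases, TATATA, a form of the TATA box, was found in Ang4 (29 bases before the start), Ang5, Ang6 (25 bases before it) and the further Rnase4 start, and in 5.25% of 32851 promoters. The common form TATAAA, held by 12.4% of promoters, was in none of the 7 entries. The zinc finger motif AGATAA, held by 9.99% of promoters, was in Rnase1 only. The Sp1 motif CCGCCC, held by 32.7%, was also in Rnase1 only. The caudal homeobox motif TTTATG, held by 10.8%, was in the further Rnase4 start only. A match describes letters and no binding.

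The genes of other families with the pattern most like that of Ang4 were named by r over the 16 pups after each delivery mode's mean was subtracted, among 20529 genes well above background on every array, whose median r was -0.0003. These r values describe 16 pups of 4 litters on shared arrays. The highest were Gm13023 (a predicted gene, r = 0.868), Mst1 (macrophage stimulating protein, r = 0.866), Clca1 (a secreted goblet cell protease, r = 0.857), a long non-coding RNA of chromosome 13 (r = 0.840), Rell1 (a membrane protein related to the TNF receptor RELT, r = 0.838), Gm9258 (a predicted non-coding RNA, r = 0.828), Lypd2 (a Ly6 family protein, r = 0.826) and a long non-coding RNA of chromosome 2 (r = 0.826). All were far below the angiogenins' own r, and all moved by small steps: the slope on Ang4 was 0.05 to 0.16, so that Clca1 was at 18.01 ± 0.15 (SD, n = 8) in CSD pups and 17.79 ± 0.16 (n = 8) in VD pups. Without VD pup 4 and CSD pup 7, r was 0.821 for Gm13023, 0.728 for Mst1, 0.597 for Clca1 and 0.602 for Lypd2. None of the 8 was called between CSD and VD pups. Mst1 differed by 0.41 (SE 0.17, adjusted p = 0.254), Gm13023 by 0.20 (SE 0.07, adjusted p = 0.192) and Clca1 by 0.18 (SE 0.07, adjusted p = 0.208).

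**Figure D5:**
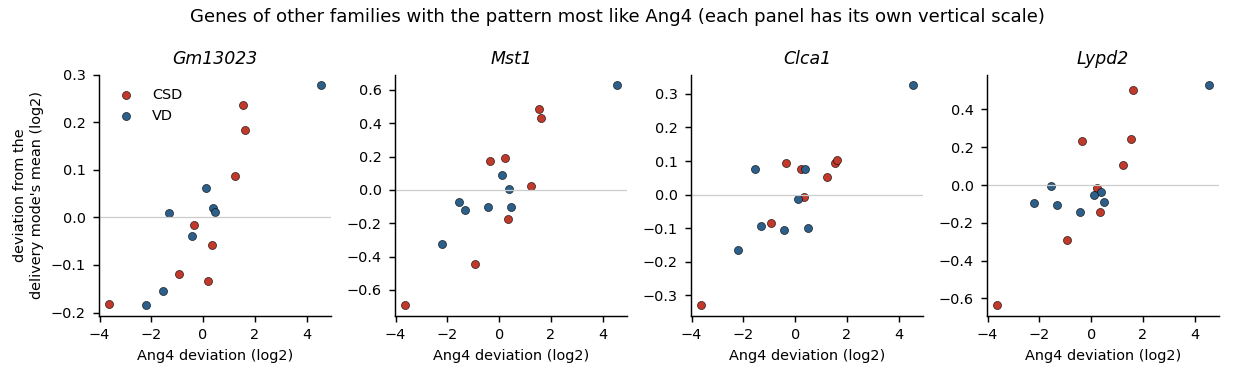
Deviations from the delivery mode's mean (log2) of Ang4 (horizontal axes) and of Gm13023, Mst1, Clca1 and Lypd2 (vertical axes, each with its own scale), 1 point per pup, CSD in red and VD in blue. Each follows Ang4 (r between 0.826 and 0.868) in steps of under 1 log2 unit, with VD pup 4 at the upper right and CSD pup 7 at the lower left.

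Goblet and deep crypt secretory cells can make Ang4, and their markers were read beside it. In lists as short as these, a count of 0 called is near the share over all genes (1.25%), and nothing is read from it. Counts at an unadjusted p under 0.05 stand against 14.5% of all genes in every list. Of 13 measured markers of goblet and deep crypt secretory cells, 10 were higher and 3 lower in CSD pups and 0 were called (5 at an unadjusted p under 0.05, against 14.5% of all genes), with a median difference of 0.18. Spdef, a transcription factor of goblet cells, was at 13.65 ± 0.13 (SD, n = 8) in CSD pups and 13.34 ± 0.14 (n = 8) in VD pups (difference 0.29, SE 0.07, adjusted p = 0.0526). Fcgbp, a mucus protein, was at 14.10 ± 0.28 (n = 8) and 13.45 ± 0.37 (n = 8) (difference 0.59, SE 0.15, adjusted p = 0.0722, limma). Zg16, a lectin of mucus and the brightest of the list, differed by -0.03 (SE 0.07, adjusted p = 0.880). Within delivery modes 11 of the 13 had r above 0 with Ang4 (median 0.29), where 49.9% of the 20529 genes well above background on every array did. This was not particular to these cells, since 8 of 9 Paneth cell markers (median 0.48) and 11 of 11 colonocyte markers (median 0.34) also had r above 0. Clca1, which is on the goblet and deep crypt secretory list too, had that list's highest r (0.86). Singled out after their values were seen were Agr2 (0.68), a goblet cell disulfide isomerase, Reg4 (0.66), a lectin of deep crypt secretory cells, and Fcgbp (0.66) next to it. At the lower end, also singled out, were Retnlb (-0.003), a resistin-like goblet cell protein, and Atoh1 (-0.23), a transcription factor of secretory cells. The list's mean log2 intensity was 14.93 ± 0.27 (n = 8) in CSD pups and 14.71 ± 0.22 (n = 8) in VD pups, and was highest among VD pups in pup 4, at 15.02, while in CSD pup 7 it was 14.98. In CSD pup 7 Retnlb was at 17.19, against 15.21 ± 2.60 (n = 8) in CSD pups. The list's mean in this pup lay above the CSD mean largely through this gene. Atoh1 (12.90) and Kit (8.48) also lay above their CSD means of 12.62 and 8.33, and Zg16 (18.28) was at its mean. Clca1 (17.69), Fcgbp (13.78), Agr2 (16.11) and Reg4 (14.63) lay under their CSD means of 18.01, 14.10, 16.38 and 14.87. The remaining markers of the list lay under theirs as well. These 4 had a high r with Ang4, which CSD pup 7 itself enters, so their low values there partly restate that r. All 13 were well above background on 16 of 16 arrays. Their part in the angiogenin values was not tested.

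Paneth cell markers, of a cell type found in the small intestine, gave a mean of 8.28 ± 0.42 (SD, n = 8) in CSD pups and 7.65 ± 0.45 (n = 8) in VD pups over 9 of 14 measured. VD pup 4 was the highest VD pup of this mean at 8.48, and CSD pup 7 the lowest CSD pup at 7.53. This mean rests largely on Itln1 and Pla2g2a, at 16.21 and 8.45 in VD pup 4 against VD means of 11.33 and 6.51. Of the 9, 7 were higher in CSD pups, 0 were called (3 at an unadjusted p under 0.05, against 14.5% of all genes) and the median difference was 0.24. Defining defensins were dim: Defa26 was well above background on 0 arrays, and Defa24, the brightest of them, well above background on 5 of 8 CSD and 6 of 8 VD arrays, had means of 6.94 and 6.54. Lyz1, the Paneth cell lysozyme and brightest of the list, was at 13.34 ± 0.39 (n = 8) in CSD pups and 13.74 ± 0.22 (n = 8) in VD pups (difference -0.34, SE 0.15, adjusted p = 0.310, limma). Pla2g2a, an antibacterial phospholipase, was at 8.70 ± 2.07 (n = 8) and 6.51 ± 0.79 (n = 8) (difference 2.04, SE 0.76, adjusted p = 0.205, limma), and r with Ang4 was 0.54. It was well above background on 8 of 8 CSD arrays but on only 1 of 8 VD arrays, so that its VD mean lies largely at the background and the difference is not a measured fold. Itln1, an intestinal lectin on this list and on that of microbe-induced genes, lay between 10.58 and 16.11 in CSD pups and between 8.65 and 16.21 in VD pups, and as for Ang4 the lowest CSD pup was pup 7 and the highest VD pup was pup 4 (r = 0.57, difference 1.57, SE 0.81, adjusted p = 0.400). The part of these cells in the angiogenin values was not tested.

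Colonocyte markers, of the absorptive cells of the colon, were higher in CSD pups for 10 of 11, with 0 called (3 at an unadjusted p under 0.05, against 14.5% of all genes), a median difference of 0.23 and list means of 13.32 ± 0.17 (SD, n = 8) in CSD pups and 13.04 ± 0.20 (n = 8) in VD pups. VD pup 4 was the highest VD pup here as well, at 13.52, and also in the list means of the small intestine (7.93), eosinophil (6.66) and microbe-induced genes (10.87, the highest of all 16 pups). The high microbe-induced mean of this pup rests largely on Itln1 and Retnlb, at 16.21 and 16.43 against VD means of 11.33 and 14.83. Slc26a3, a chloride bicarbonate exchanger, differed by 0.45 (SE 0.13, adjusted p = 0.113), Slc9a3, a sodium proton exchanger, by 0.88 (SE 0.27, adjusted p = 0.126) and Saa1, a serum amyloid protein and the brightest, by 0.23 (SE 0.13, adjusted p = 0.444). Genes ordered along the gut, of the Hox clusters, were lower for 10 of 13 with 0 called (3 at an unadjusted p under 0.05). Hoxa13 differed by 0.39 (SE 0.11, adjusted p = 0.0902), Hoxd8 by -0.21 (SE 0.06, adjusted p = 0.122) and Hoxb13 by -0.15 (SE 0.07, adjusted p = 0.348). The median r of this list with Ang4 was -0.19, and its mean was the lowest of its group in both VD pup 4 (8.60) and CSD pup 7 (8.76), whose Ang4 values lay at opposite ends.

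In the small intestine list 2 of 12 had an unadjusted p under 0.05, against 14.5% of all genes. Only Anpep, an aminopeptidase of the brush border, was called, where 1.25% of all genes were. It fell from 11.88 ± 0.07 (SD, n = 8) in VD pups to 11.55 ± 0.11 (n = 8) in CSD pups (difference -0.35, SE 0.05, adjusted p = 0.00472, limma), and its r with Ang4 was -0.01. Pancreatic acinar markers, which would accompany Rnase1, had 0 of 11 called (1 at an unadjusted p under 0.05). Prss2 (trypsin), Pnlip (lipase) and Amy2a5 (amylase) were well above background on 0 arrays, as was Rnase1. The brightest, the elastase Cela1, was at 14.58 ± 0.25 (n = 8) in CSD pups and 14.61 ± 0.26 (n = 8) in VD pups, Cpb1 (a carboxypeptidase) differed by 0.37 (SE 0.11, adjusted p = 0.132) and Clps (colipase) by 0.24 (SE 0.17, adjusted p = 0.587). Liver markers had 0 of 8 called (1 at an unadjusted p under 0.05), with Serpina1a at -0.55 (SE 0.22, adjusted p = 0.242) and Apoa2 at -0.09 (SE 0.04, adjusted p = 0.346).

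The known partners of angiogenins, its inhibitor Rnh1 and its receptors and binding proteins, had 0 of 11 called, 3 higher and 8 lower, and 3 had an unadjusted p under 0.05, against 14.5% of all genes. Fst (follistatin, which binds angiogenin) differed by 0.30 (SE 0.10, adjusted p = 0.143), Actn2 (an actinin) by -0.17 (SE 0.08, adjusted p = 0.305) and Actb, the cell surface actin that binds angiogenin and the brightest, by -0.12 (SE 0.06, adjusted p = 0.345). Genes of tRNA cleavage, ligation and stress granules had 0 of 12 called, 9 higher and 3 lower, and 7 had an unadjusted p under 0.05, against 14.5% of all genes. Dicer1, a ribonuclease of small RNA processing, differed by 0.15 (SE 0.04, adjusted p = 0.0657), Eif2ak4, a stress kinase that senses uncharged tRNA, by 0.11 (SE 0.03, adjusted p = 0.0988) and Rtcb, the tRNA ligase, by -0.11 (SE 0.04, adjusted p = 0.168). Microbe-induced epithelial genes had 0 of 17 called (0 at an unadjusted p under 0.05) and a median difference of -0.004, with Lypd8, a protein that keeps bacteria off the epithelium, at -0.11 (SE 0.06, adjusted p = 0.432). Type 2 and tuft cell genes had 0 of 16 called (2 at an unadjusted p under 0.05), 4 higher and 12 lower, with Il17rb, the IL-25 receptor, at -0.12 (SE 0.04, adjusted p = 0.152).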

How the data were processed

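Colon RNA of 16 pups, 8 CSD and 8 VD, was measured on 1-colour arrays. The authors deposited scanner files with the mean intensity, local background and processed intensity of 62976 spots per array, made with Feature Extraction 12.0.3.2. They also deposited log2 values of 27036 genes, which had been corrected, quantile normalized, filtered on dim probes and averaged by gene with limma 3.38. Probe positions (mm9) and names were taken from the scanner files. The design number in the scanner output differs from the one in the study's methods. Here, normexp (offset 50), log2 and quantile normalization were applied to the 59305 gene spots with limma 3.58.1 in R 4.3.3, outlier spots were left out, and probes above the lowest 5% of their array on at least 4 arrays were averaged by gene name. Delivery modes were compared with lmFit and eBayes, fitting delivery mode and sex, with the mother through duplicateCorrelation (consensus correlation 0.0152), with Benjamini-Hochberg adjustment over all genes and a limit of 0.05. The sexes and the delivery by sex interaction used the same model, and the litters of a delivery mode a model with litter and sex. The fits were tested on simulated data with independent normal noise for each pup. Without correlation within litters, these data cannot show how the mother's random effect behaves here. With 2 litters per delivery mode the mother's correlation is poorly estimated.

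The members and the 13 gene lists were chosen with earlier results of these data known. Named in the text are the members, from each list the genes called or else the 2 with the smallest p, its brightest gene, and the 8 genes outside the family with the highest r with Ang4. Lct, Sis, Fabp2, Agr2, Reg4, Retnlb, Atoh1, Kit, Defa24, Prss2, Pnlip and Amy2a5 were named beyond that rule after their values were seen. Promoter sequences were from RefSeq (GRCm38.p6), aligned with Biopython 1.88. Pups are separate animals, and their number limits the precision. Alternatives were the offset, the scanner software's processed intensity with quantile or 75th percentile scaling, filters, outlier spots, the brightest probe, the deposited matrix, the terms of the model, the slides, and leaving out pups or litters. Outside the replicate block, the numbers in the pups' titles were not taken as pairs. For the 5 numbers that both modes hold, the correlation of deviations ran from -0.049 to 0.215 and was over 0.1 for 2. So few values cannot show whether the numbers pair the samples. Plots were drawn with matplotlib.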

Additional observations from a re-analysis of the deposited data

Results flagged for a closer look

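VD pup 4 lay far above the other VD pups in each angiogenin. The gap to the next pup, as a share of the group's whole range, was 0.718 for Ang, 0.714 for Ang2, 0.673 for ENSMUST00000162314, 0.602 for Ang4, 0.602 for Ang6 and 0.596 for Ang3 and passed Dixon's limit for 8 values each time. Within the litter of mother 5 this share was 0.792 for Ang, 0.745 for Ang2 and 0.795 for Rnase4, past the limit for 5 values, while it was 0.686 for ENSMUST00000162314, 0.626 for Ang6, 0.617 for Ang4 and 0.612 for Ang3, under that limit. The 6 angiogenin values come from probes that moved together, so they are not separate observations. The same pup stood apart in Lypd2 (0.794) and Mst1 (0.567), which were named for following Ang4 over these pups, so that this restates how they were chosen.

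CSD pup 7 was the lowest CSD pup in Clca1, with a share of 0.567, and in Rell1, with 0.869, both again named for following Ang4. Its share in Ang4, 0.513, was under the limit. Rnase1, not above background, had VD pup 9 apart at 0.535. In all 14 of 56 groups of pups passed the limit. Chance passes about 1 in 20 independent groups, but these hold probes that moved together, genes named for following Ang4 and litters within their delivery modes, so nothing is read from the count.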

How the results depend on the processing

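The difference of Ang4 between CSD and VD pups kept its direction in every alternative run. It lay between 3.16 and 4.44 without each pup, between 2.78 and 4.33 without each litter and between 3.46 and 5.20 otherwise. The number of angiogenins called, 6 of 6, did not hold: it was 0 to 6 without each pup and 0 to 6 without each litter. It was 0 with the offset of 16, with the processed intensity under either scaling, with probes well above background on at least 8 arrays, in the deposited matrix, with litter means, in males, on slide 1, on slide 2 and with eBayes trend and robust. The number of genes called, 460, was 145 to 617 without each pup and 138 to 2265 without each litter. It was 243 with the offset of 16, 177 and 164 with the processed intensity under quantile and 75th percentile scaling, 170 in the deposited matrix, 992 without sex, 0 with litter means and 0 in males, 11 on slide 1 and 0 on slide 2, and 69 without both VD pup 4 and CSD pup 7, an alternative chosen after the data were seen. The replicate block, with the titles' numbers over 10 pups, gave 0 genes and 0 angiogenins called and an Ang4 difference of 4.21. Fewer arrays were fitted in males, on 1 slide and in the block, and otherwise the cause was not tested.

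In the other comparisons 0 members passed under any alternative. The Ang4 difference between the litters of mothers 5 and 6 was -0.98 to 0.14 without each pup, turning only without VD pup 11. With the slide in the model that difference turned for Ang (0.25), Ang2 (0.19), Ang3 (0.0037), Ang6 (0.026) and ENSMUST00000162314 (0.20). Without each pup it ran from -0.53 to 0.14 for Ang, -0.66 to 0.10 for Ang2, -0.95 to 0.15 for Ang3, -0.91 to 0.16 for Ang6 and -0.70 to 0.21 for ENSMUST00000162314. The delivery by sex difference ran from -3.21 to 0.33 for Ang and -3.57 to 0.22 for Ang2, positive only without VD pup 4. For Rnase1, not above background, the values ran from -0.014 to 0.044 between the litters of mothers 3 and 4 and from -0.039 to 0.0016 between the sexes, litters left out included, and from 0.013 to 0.18 and from -0.28 to -0.015 under the other alternatives. Genes called between litters were 23 to 69 in CSD and 77 to 467 in VD, the lowest without VD pup 9, between the sexes 11 to 28, and in the interaction 1 to 127, the highest without VD pup 4. Among the members, signal over background limited Rnase1 only.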
